A study of Rattus norvegicus with 12 samples.

Results

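The genes described here are 6 myosin chains of heart muscle: the heavy chains Myh6 and Myh7 and the light chains Myl2, Myl3, Myl4 and Myl7. They were measured on 12 one-colour Affymetrix arrays of rat atrium. All probe sets that the array annotation assigns to 1 of these symbols alone were taken, which gave 9 probe sets of the 31042 tested, or 6 of the 14217 genes named. Myh6, Myh7 and Myl2 had 2 probe sets each, and Myl3, Myl4 and Myl7 had 1 each. The probe set with the highest mean over the 12 arrays stands for its gene, and the other one is reported beside it.

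The animals were male Sprague-Dawley rats of 225 to 275 g with no genetic change named in the labels. An aorto-caval shunt, a surgical opening between the aorta and the vena cava that returns arterial blood to the right heart and loads the heart with volume, was compared with a sham operation. Tissue of the right and the left atrial appendage was taken 28 days after surgery, giving a sham and a shunt group for each atrium. Each group had 3 arrays, and each array carried RNA pooled from 2 tissues, so a value is an average over tissues and the spread between single animals was not measured.

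A myosin molecule of the sarcomere has a pair of heavy chains, which carry the motor, and on each a regulatory and an essential light chain that stiffen and tune the lever arm. Atrial muscle cells normally use alpha myosin heavy chain (Myh6) with the atrial essential light chain (Myl4) and the atrial regulatory light chain (Myl7). Beta myosin heavy chain (Myh7), a slower motor of fetal ventricle and slow skeletal muscle, and the ventricular regulatory (Myl2) and essential (Myl3) light chains are the counterparts of the ventricle. In rodents a rise of Myh7 is a widely used sign of cardiac overload.

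Myh6 and Myh7 lie next to each other on the same strand of rat chromosome 15, and each holds a microRNA gene inside its span. These microRNAs are shown because the heart muscle myosin genes carry them. Both mature sequences come from RefSeq (build GRCr8), miR-208a-3p at chr15:32395568-32395585 and miR-208b-3p at chr15:32421648-32421665, both on the minus strand. Capitals mark the seed, bases 2 to 8, which is identical in both. No level of either microRNA is reported here.
rno-miR-208a-3p, within Myh6: aUAAGACGagcaaaaagc
rno-miR-208b-3p, within Myh7: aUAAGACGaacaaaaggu

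The RefSeq promoter table (GRCr8) held a window for 5 of the 6 genes, Myl2 being the gene without one. The 250 bases before the start site are printed for the essential light chains, the ventricular Myl3 at chr8:119616844-119617093 and the atrial Myl4 at chr10:89975900-89976149, both on the plus strand, because Myl3 rose after the shunt and Myl4 did not pass the test. The motifs searched on both strands, in windows that run on to 50 bases after the start, were the MCAT element CATTCC, the thyroid hormone receptor hexamer AGGTCA, the GATA site AGATAA, the CArG box and the E-box CANNTG. Capitals mark every match except E-boxes, which are too common to mark. No searched motif overlapped another in these windows.
Myl3: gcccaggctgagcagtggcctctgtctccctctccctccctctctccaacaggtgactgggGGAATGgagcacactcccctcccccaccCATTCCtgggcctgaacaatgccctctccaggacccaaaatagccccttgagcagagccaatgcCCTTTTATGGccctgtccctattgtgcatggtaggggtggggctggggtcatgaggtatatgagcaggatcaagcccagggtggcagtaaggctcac
Myl4: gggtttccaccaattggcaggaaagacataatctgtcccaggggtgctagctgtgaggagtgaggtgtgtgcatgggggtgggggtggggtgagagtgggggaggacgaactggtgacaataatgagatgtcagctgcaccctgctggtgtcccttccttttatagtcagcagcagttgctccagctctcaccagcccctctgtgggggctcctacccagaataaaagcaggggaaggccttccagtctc

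The Myl3 window held the MCAT element on both strands, from -189 to -184 on the minus strand and from -161 to -156 on the plus strand, and a CArG box from -97 to -88, counted from the start site. The Myl4 window held E-boxes only. Among the other windows, Myh6 held an MCAT element from -23 to -18, and no motif besides E-boxes was found for Myl7 and Myh7. The Myh7 window has cag right before its start and an ATG shortly after it, as a splice site before a coding exon would. It may therefore not be the promoter, and the lack of motifs in it says nothing of the Myh7 promoter. Over the 33469 windows of that length in the table, 14.2% held the MCAT element, 16.2% the thyroid hormone receptor hexamer, 11.6% the GATA site, 72.1% an E-box and 1.64% a CArG box. These matches describe letters in a window and say nothing of the binding of a factor.

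The deposited values are log2 intensities, and array medians lay between 5.44 and 5.47. The first principal component held 60.5% of the variance and separated left from right arrays. Nppa, the atrial natriuretic peptide gene that marks atrial muscle, lay between 14.37 and 14.43 on all 12 arrays, at the top of the scale. Replicate 3 of the left atrium shunt group stood apart from its group, with a mean correlation of 0.9895 with the other arrays of the group against 0.9923 and 0.9929 for those. On that array the brown fat gene Ucp1 was at 7.56, against 4.22 and 4.66 on the others of its group, Plin1 of fat cells was at 5.89 and the neuronal Stmn2 at 4.83. The mean level of 7 adipocyte markers reached 6.88 in left atrium shunt, against at most 6.02 in left atrium sham, and that of 8 neuronal markers reached 4.97. No arrays were duplicates, the highest correlation between any pair being 0.99694. Per the labels the tissue was atrial, while another entry of the same labels names ventricles besides atria.

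The signals of the atrial chains lay near the top of the scale, which ended at 14.43. Their mean log2 levels over the 12 arrays were 14.20 for Myl7, 13.95 for Myh6 and 13.71 for Myl4. Values there may be compressed, which was not measured, so changes of these genes may be understated. The mean levels of the ventricular chains were 9.95 for Myl3, 8.94 for Myh7 and 8.64 for Myl2, away from the top of the scale. Because each gene is read by other probes, these levels do not rank the genes by abundance.

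**Figure D1:**
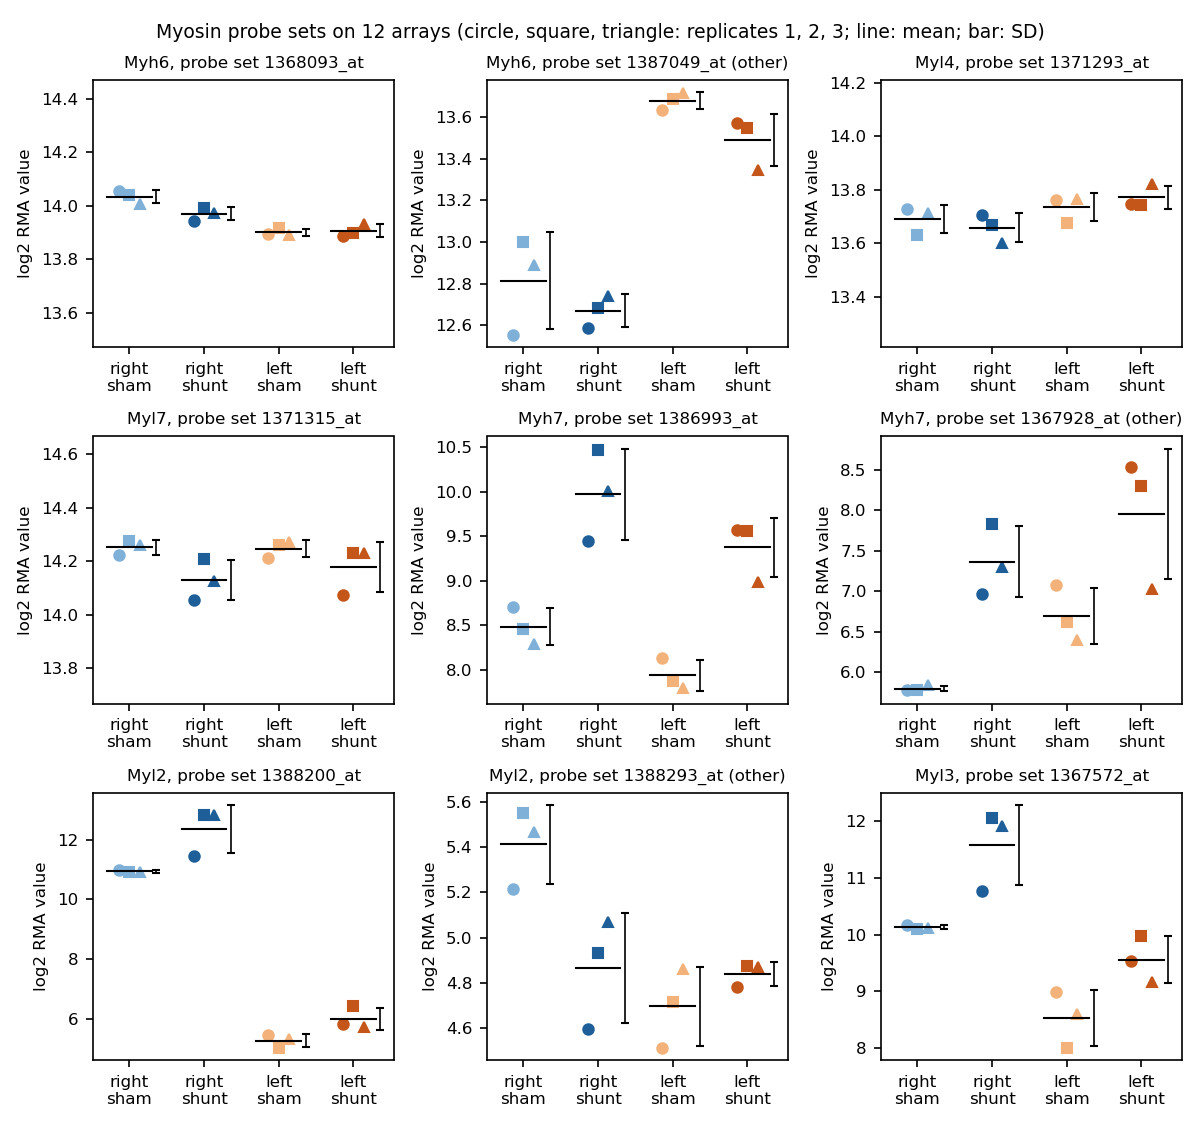
Log2 expression (vertical axis) of the 9 myosin probe sets on each of the 12 arrays, by group, with 1 point per array, a line at the group mean and a bar for the SD (n = 3); each panel has its own scale. The brighter probe sets of Myh7 and Myl2 and the probe set of Myl3 lie higher after the shunt in both atria, Myl2 lies between 10.90 and 12.83 in the right atrium and between 5.02 and 6.42 in the left, and the group means of Myl4 span only 13.66 to 13.77.

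In the right atrium, the shunt was followed by levels of the 3 ventricular chains that were 2.68- to 2.80-fold higher. Myh7, Myl2 and Myl3 passed the test (limma, adjusted p under 0.05 over all probe sets), and Myh6, Myl4 and Myl7 did not. The count of 3 of 6 genes stands against 2.83% of all genes called higher in that comparison and 3.97% called in either direction.

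The right atrial level of Myh7 was 8.71, 8.46 and 8.30 on the sham arrays and 9.45, 10.46 and 10.01 on the shunt arrays. All 3 shunt arrays lay above all 3 sham arrays. The group means were 8.49 ± 0.21 and 9.97 ± 0.51 (SD, n = 3). The difference was 1.48 ± 0.22 (SE) on the log2 scale, with a 95% interval from 0.999 to 1.97, or 2.80-fold (limma adjusted p = 0.0068). The other probe set of Myh7, with 5.77, 5.78 and 5.84 in sham and 6.96, 7.83 and 7.31 in shunt, moved the same way by 1.57 ± 0.32 (limma adjusted p = 0.0258). The 2 probe sets of Myh7 thus rose by amounts within their errors. The call of the other probe set was lost in 6 of 19 alternatives, for example without right atrium shunt replicate 2 (1.34, limma adjusted p = 0.114).

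Myl2, the ventricular regulatory light chain, had levels of 11.00, 10.93 and 10.90 in right atrium sham and 11.45, 12.83 and 12.82 in right atrium shunt. The sham arrays were close together (10.94 ± 0.05), while the shunt arrays were not (12.37 ± 0.80), replicate 1 being the lowest but still above all sham arrays. The difference was 1.42 ± 0.30, with a 95% interval from 0.77 to 2.08, or 2.68-fold (limma adjusted p = 0.0285). The dim other probe set of Myl2 fell by 0.55 ± 0.13 (limma adjusted p = 0.0418), so the probe sets disagreed in direction. Its levels, 5.22, 5.55 and 5.47 in sham and 4.60, 4.93 and 5.07 in shunt, lay near or below the array medians. The call of this dim probe set was lost in 7 of 19 alternatives, with a limma adjusted p of up to 0.15.

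Myl3 is the ventricular essential light chain, which slow skeletal muscle also uses. Its levels were 10.17, 10.10 and 10.12 in right atrium sham and 10.78, 12.05 and 11.92 in right atrium shunt. Replicate 1 was again the lowest of the shunt arrays, and the groups did not overlap. The means were 10.13 ± 0.03 and 11.58 ± 0.70, a difference of 1.45 ± 0.31 with a 95% interval from 0.77 to 2.14, or 2.74-fold (limma adjusted p = 0.0317).

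The size of these rises depended on 2 arrays. With replicate 1 as the only array of the right atrium shunt group, a setting chosen after seeing the data, the differences were 0.96 for Myh7, 0.51 for Myl2 and 0.65 for Myl3, and none of the 6 genes passed. On the probe set that stands for it, Myh7 kept its call without any 1 array, at 1.24 to 1.75. Myl2 lost its call without right atrium shunt replicate 2 (1.19, limma adjusted p = 0.123) or 3 (1.20, 0.0859) and without any of the right atrium sham replicates. Myl3 lost its call under the same 5 exclusions, for example without right atrium shunt replicate 2 (1.22, limma adjusted p = 0.13).

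The atrial chains moved little in the right atrium. Myh6 was at 14.05, 14.04 and 14.01 in sham and at 13.94, 13.99 and 13.97 in shunt, a difference of -0.06 ± 0.06 with a 95% interval from -0.19 to 0.07 (limma adjusted p = 0.606). Myl7 was at 14.22, 14.27 and 14.26 in sham and at 14.06, 14.21 and 14.13 in shunt. Its difference of -0.12 ± 0.07, with an interval from -0.28 to 0.03, did not pass either (limma adjusted p = 0.371). For Myh6 and Myl7 all 3 shunt arrays lay below all 3 sham arrays, by small steps. The share of all genes without overlap is not given here. Myl4, at 13.73, 13.63 and 13.71 in sham and 13.71, 13.67 and 13.60 in shunt, overlapped, with a difference of -0.03 ± 0.07 (limma adjusted p = 0.839).

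In the left atrium, Myh7 was the 1 member that passed the test, and it rose by nearly the same amount as on the right. This count of 1 of 6 stands against 0.373% of all genes called higher and 0.935% called in either direction. The level of Myh7 was 8.14, 7.88 and 7.80 in left atrium sham and 9.57, 9.56 and 8.99 in left atrium shunt. No shunt array reached down to a sham array, and the lowest of the 3 was replicate 3, the array that stood apart. The means of 7.94 ± 0.18 and 9.38 ± 0.33 differed by 1.44 ± 0.22, with a 95% interval from 0.95 to 1.92, or 2.71-fold (limma adjusted p = 0.0124). Without left atrium shunt replicate 3 the difference was 1.63 (limma adjusted p = 0.00304).

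The left atrial call of Myh7 was lost without left atrium shunt replicate 2 (1.34, limma adjusted p = 0.0526), without left atrium sham replicate 2 (1.40, 0.0597) or 3 (1.37, 0.0709), and when the left arrays were fitted alone (1.44, 0.0608). The other probe set of Myh7 had levels of 7.07, 6.62 and 6.39 in sham and 8.53, 8.30 and 7.03 in shunt. The shunt array at 7.03 was again replicate 3, and it fell inside the sham range. The difference of 1.26 ± 0.32 did not pass (limma adjusted p = 0.104), and without that array it was 1.72 (limma adjusted p = 0.00209).

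The ventricular light chains were higher on the left shunt arrays without passing the test. Myl3 was at 8.99, 8.004 and 8.61 in left atrium sham and at 9.54, 9.98 and 9.16 in left atrium shunt, a difference of 1.03 ± 0.31 with a 95% interval from 0.35 to 1.71 (limma adjusted p = 0.166). Myl2 was at 5.45, 5.02 and 5.30 in sham and at 5.82, 6.42 and 5.71 in shunt, a difference of 0.73 ± 0.30 with an interval from 0.08 to 1.38 (limma adjusted p = 0.307). The groups did not overlap for either gene, but the share of all genes without overlap is not given here. The left atrial levels of Myl2 lay close to the array medians, where a difference between arrays may be hard to resolve.

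The atrial chains moved little in the left atrium as well. Myh6 was at 13.90, 13.92 and 13.89 in sham and 13.89, 13.90 and 13.93 in shunt, a difference of 0.01 ± 0.06 (limma adjusted p = 0.979). Myl4 gave 0.04 ± 0.07 (limma adjusted p = 0.859) and Myl7 gave -0.07 ± 0.07 (limma adjusted p = 0.724). The groups overlapped for all 3 genes. The second probe set of Myh6 was lower by 0.14 ± 0.11 in the right and 0.19 ± 0.11 in the left atrium, and neither difference passed (limma adjusted p = 0.504 and 0.470).

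**Figure D2:**
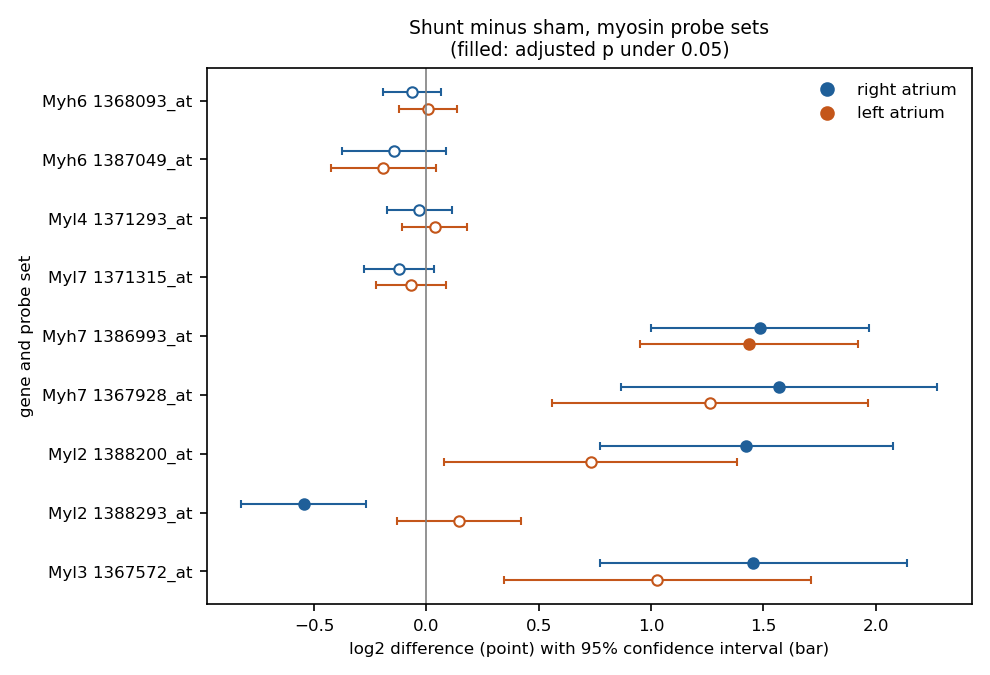
Shunt minus sham log2 difference (horizontal axis) of each myosin probe set in the right and the left atrium, with the 95% interval of the limma fit as a bar; filled points passed an adjusted p of 0.05. The brighter probe sets of Myh7 and Myl2 and that of Myl3 lie above 0 in both atria, all filled in the right atrium and Myh7 alone in the left, and the intervals of Myl4 and Myl7 include 0.

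Averaged over both atria, 3 of the 6 genes were called higher, where 3.4% of all genes were called higher and 5.25% in either direction. Myh7 rose by 1.46 ± 0.16 (limma adjusted p = 0.00042), Myl3 by 1.24 ± 0.22 (0.00902) and Myl2 by 1.08 ± 0.21 (0.0152). The dim other probe set of Myl2 went the other way, by -0.20 ± 0.09, without passing (limma adjusted p = 0.267). The averaged call of Myl2 was lost in 2 of 19 alternatives, for example with the mean of its probe sets (0.44, limma adjusted p = 0.0754). The atrial Myh6, Myl4 and Myl7 did not pass. These averages reuse the arrays of both atria and add no sample.

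Whether the shunt acted on a gene differently in each atrium was tested by the left minus right difference of the shunt effects. No member passed that test (limma, with 0.0281% of all genes called). None of the 6 had an unadjusted p under 0.05 on the probe set that stands for it. The dim other probe set of Myl2 gave 0.69 ± 0.18 (limma unadjusted p = 0.00224, adjusted p = 0.166). For Myh7 the difference of effects was -0.05 ± 0.32, with a 95% interval from -0.74 to 0.64 (limma adjusted p = 0.959). For Myl2 it was -0.69 ± 0.43, with an interval from -1.62 to 0.23 (limma adjusted p = 0.474), and for Myl3 -0.43 ± 0.45, from -1.39 to 0.54 (limma adjusted p = 0.684). These intervals are wide, so the data do not show that the atria responded alike, and they do not show a difference.

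The left and right atrium differed most in Myl2, whatever the operation. In sham atria Myl2 was at 10.94 ± 0.05 on the right and 5.26 ± 0.22 on the left, a log2 difference of -5.69 ± 0.30 (limma adjusted p = 1.94e-07). In shunt atria it was at 12.37 ± 0.80 and 5.99 ± 0.38, a difference of -6.38 ± 0.30 (limma adjusted p = 2.64e-07). Since the left levels lay close to the array medians and no detection calls were used here, no fold is given. The 6 right arrays of Myl2 lay between 10.90 and 12.83 and the 6 left arrays between 5.02 and 6.42. The dim other probe set of Myl2 was also lower on the left in sham, by -0.72 ± 0.13 (limma adjusted p = 0.000871), with -0.02 in shunt (limma adjusted p = 0.895).

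Myl3 was lower on the left by less. The difference was -1.60 ± 0.31 in sham, or 3.02-fold (limma adjusted p = 0.0017), and -2.02 ± 0.31 in shunt, or 4.06-fold (limma adjusted p = 0.000411). Thus 2 of the 6 genes were called lower on the left in each comparison, where 15.4% of all genes were called lower in sham and 19.4% in shunt. Calls in either direction took in 37.6% and 40.5% of all genes, so a left-right call by itself is common on these arrays. Both Myl2 and Myl3 kept these calls in all alternatives planned. RNA quality split the atria too: signal of the 3' end of beta-actin over the 5' end was 1.58 to 2.03 log2 units on the right arrays and 1.14 to 1.39 on the left, and that of GAPDH 0.317 to 0.398 and 0.176 to 0.284. Its part in the left-right differences was not tested.

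For the heavy chains, the left-right direction depended on the probe set. Myh7 was lower on the left by -0.55 ± 0.22 in sham on the brighter probe set, without passing (limma adjusted p = 0.0745), and higher by 0.90 ± 0.32 on the other one (limma adjusted p = 0.0468). In shunt the same probe sets gave -0.60 ± 0.22 (limma adjusted p = 0.0525) and 0.59 ± 0.32 (limma adjusted p = 0.173). For Myh6 the brighter probe set gave -0.13 ± 0.06 in sham (limma adjusted p = 0.102) and the other 0.87 ± 0.11 (limma adjusted p = 6.11e-05). No left-right direction of Myh6 or Myh7 can be read from these values.

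The second probe set of Myh6 made the contrast plain, with right sham levels of 12.55, 12.999 and 12.89 against left sham levels of 13.64, 13.69 and 13.72. In shunt it was at 12.59, 12.68 and 12.74 on the right and 13.57, 13.55 and 13.35 on the left, a difference of 0.82 ± 0.11 (limma adjusted p = 0.000127). A further 2 probe sets are annotated to both Myh6 and Myh7 and were not counted as members. They lay between 10.27 and 12.20 and between 13.92 and 14.10, and neither was called in any shunt comparison.

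Myl4 and Myl7 did not pass between the atria. Myl4 gave a left minus right difference of 0.04 in sham (limma adjusted p = 0.644) and 0.11 in shunt (limma adjusted p = 0.200). Myl7 gave 0.05 in shunt (limma adjusted p = 0.618), and its sham means of 14.25 ± 0.03 were equal to 2 decimals.

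Over the 4 groups, Myh7 ran from right shunt (9.97) over left shunt (9.38) and right sham (8.49) down to left sham (7.94). The shunt groups of Myh7 overlapped, and left and right did not pass the test within either operation. Myl3 ran from right shunt (11.58) over right sham (10.13) and left shunt (9.56) to left sham (8.53), and Myl2 in the same order (12.37, 10.94, 5.99 and 5.26), with no overlap between neighbours for either. For the atrial chains no tested pair of groups passed on the probe sets that stand for them. On the brighter probe set of Myh6 all 6 right arrays lay above all 6 left arrays, and on its other probe set all lay below. The share of all genes whose groups separate, here and in the comparisons above, is not given.

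**Figure D3:**
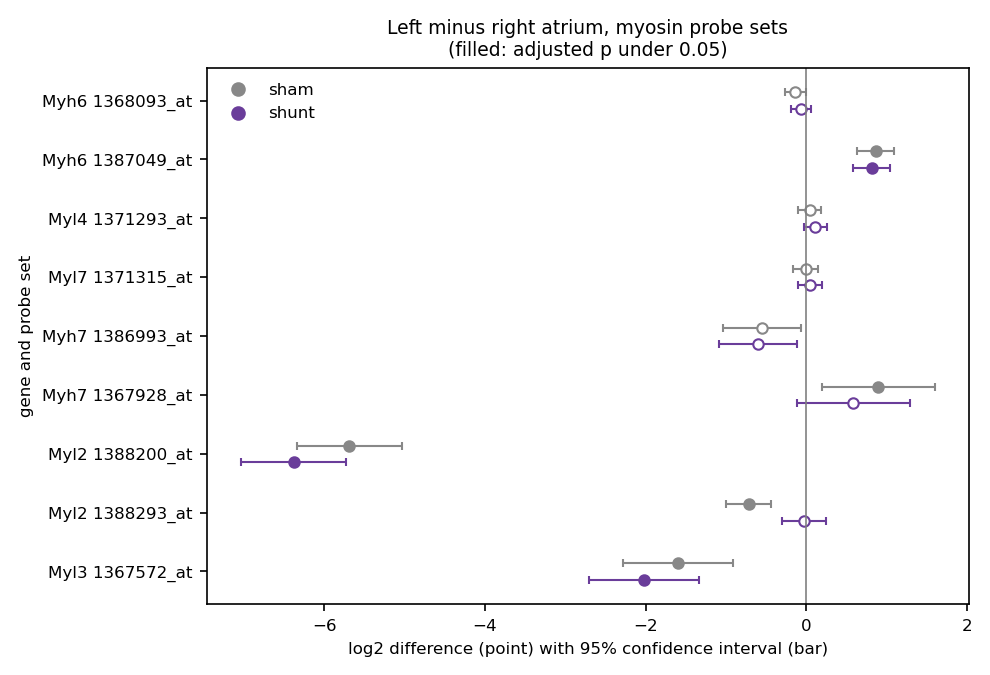
Left minus right atrium log2 difference (horizontal axis) of each myosin probe set in sham and in shunt animals, with the 95% interval as a bar; filled points passed an adjusted p of 0.05. Myl2 lies at -5.69 and -6.38 and Myl3 at -1.60 and -2.02, while the paired probe sets of Myh6 and of Myh7 lie on opposite sides of 0.

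Set against each other on the same array, the ventricular chains gained on the atrial ones after the shunt. The mean log2 level of Myh7, Myl2 and Myl3 minus that of Myh6, Myl4 and Myl7 was -4.04, -4.15 and -4.22 in right atrium sham and -3.34, -2.17 and -2.32 in right atrium shunt. It was -6.43, -6.99 and -6.74 in left atrium sham and -5.59, -5.30 and -6.04 in left atrium shunt. The 4 groups did not overlap, and their order from the lowest was left sham, left shunt, right sham, right shunt. How often an index of other genes would separate the groups was not computed. Only differences of this index between arrays can be read, because probe sets differ in how strongly they bind, and no test was made on it.

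The index rose by 1.53 in the right and by 1.07 in the left atrium. It was lower on the left by 2.58 in sham and 3.03 in shunt, Myl2 having the largest difference of the 3 ventricular chains. Taken as pairs of chains with the same place in the molecule, Myh7 minus Myh6 shifted by 1.55 in the right and 1.43 in the left atrium, and by 1.63 in each with the second probe set of Myh6. The regulatory pair, Myl2 minus Myl7, shifted by 1.55 and 0.80, and the essential pair, Myl3 minus Myl4, by 1.49 and 0.99.

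**Figure D4:**
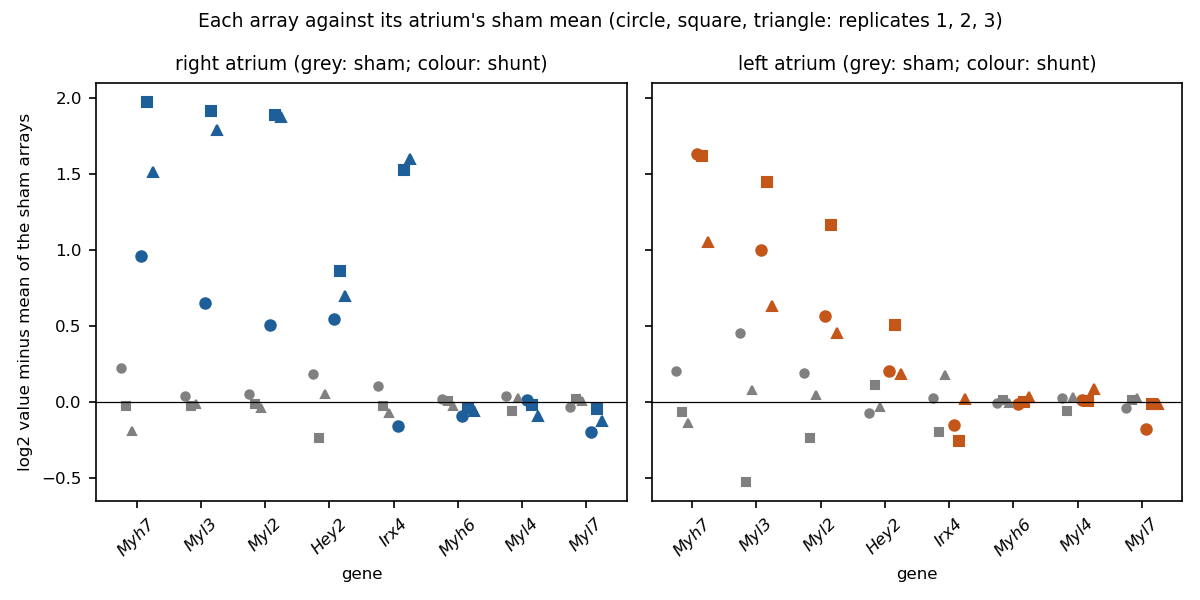
Each array's log2 level of the 6 genes, and of the ventricular transcription factors Hey2 and Irx4 described further on, minus the mean of the sham arrays of the same atrium (vertical axis), 1 point per array. In right atrium shunt, replicate 1 lies below replicates 2 and 3 for Myh7, Myl2 and Myl3, and Myh6, Myl4 and Myl7 stay near 0 throughout.

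Across the 12 arrays, Myl2 and Myl3 ran together (Pearson r = 0.89), as did Myh7 and Myl3 (0.823), while Myh7 and Myl2 did less so (0.521). The arrays share the split into left and right and into sham and shunt, and correlations within a group were not computed. The genes whose pattern was most like that of a member were sought among 2188 genes that varied over the arrays. Nearest to Myl2 were Peli1 (0.992), Actr2 (0.991) and Osbpl8 (0.991), all higher in the right atrium. Nearest to Myl3 were Itsn2 (0.961), Phldb2 (0.959) and Casp1, and nearest to Myh7 were LOC102553868 (0.969), RT1-DMb (0.959) and Tmem179 (0.954).

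For the atrial light chains Myl4 and Myl7, whose values hardly varied, likeness was lower. The highest for Myl7 were Ephx2 (0.839), Tsga10 (0.774) and Eogt (0.760), and for Myl4 Kctd15 (0.818), Hspb1 (0.810) and Paqr7. The brighter probe set of Myh6 was most like Cul4a (0.957), Foxp2 and Ccbe1 (0.955), which were higher on the right. That probe set ran against the other probe set of Myh6 (Pearson r = -0.808), so this likeness may not be that of the gene. These are descriptions over 12 arrays in 4 groups.

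A list of ventricular markers was read beside these results, of which only Irx4 and Hey2 were set as defining ventricular muscle. Mybpc3, Gja1 and Fabp3 of the list had mean levels of 12.22, 12.42 and 12.94 over these atrial arrays, and the others were dimmer. The median and the mean level of the list therefore say little of ventricular muscle. Of 9 ventricular markers other than the members, 1 rose in the right atrium, where 2.83% of all genes did. The median change of the 9 there was -0.01. The 1 that rose was Hey2, a repressor that sets ventricular identity. Hey2 was at 6.59, 6.16 and 6.46 in right sham and 6.95, 7.26 and 7.10 in right shunt, a difference of 0.70 ± 0.12 (limma adjusted p = 0.0136), lost without right atrium shunt replicate 2 or sham replicate 2. Irx4, the transcription factor that defines ventricular muscle, was at 4.44, 4.31 and 4.26 in right sham and at 4.18, 5.86 and 5.94 in right shunt. The 2 high arrays of Irx4 are the ones with the highest Myl2 and Myl3.

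The difference of Irx4 in the right atrium was 0.99 ± 0.34 and did not pass (limma adjusted p = 0.130), and its second probe set gave 0.03. In the left atrium Irx4 was at 3.41, 3.19 and 3.56 in sham and 3.23, 3.13 and 3.40 in shunt, and Myh7 rose there by 1.44. The mean level of the 9 ventricular markers ran from 7.67 to 7.73 in right sham, 7.67 to 7.94 in right shunt, 7.64 to 7.66 in left sham and 7.59 to 7.65 in left shunt. In RNA from whole tissue, more cells of a type and more RNA per cell cannot be told apart. The part of ventricular muscle in the right atrial result was not tested.

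Of 13 atrial markers other than the members, 1 fell in the right atrium, Kcna5, a potassium channel of atrial muscle, by 0.92 (limma adjusted p = 0.0084), where 1.14% of all genes were called lower. The mean level of that list was 10.28 to 10.34 in right sham and 10.18 to 10.23 in right shunt. None of 9 general heart muscle markers passed limma's test in the right atrium, where 1 had an unadjusted p under 0.05. Macrophage markers moved with the shunt in the right atrium, where 3 of 8 rose, against 2.83% of all genes (Mrc1, Aif1 and Lyz2, whose calls held in 4, 8 and 6 of 12 exclusions of an array), and the mean level of the 8 went from at most 7.11 on the sham arrays to at least 7.54 on the shunt arrays. Signal of the 3' end of beta-actin over the 5' end, a sign of RNA quality, was 1.58 to 1.82 log2 units in right sham and 1.91 to 2.03 in right shunt. Of the other marker lists, Esam (endothelial) and Prph (neuronal) rose in the right atrium and Krt19 (mesothelial) fell, and in the left atrium Hamp of the atrial list and the neuronal Prph and Uchl1 rose. Esam held in 6 of 12 exclusions of an array, Krt19 in 10 and Uchl1 in 2, and Prph and Hamp in all 12. No fibroblast, smooth muscle, adipocyte or erythrocyte marker passed limma's test in either atrium. The part of these cells and of RNA quality in the myosin results was not tested.

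Among 14 measured myosin chains of other muscles and of non-muscle cells, 1 was called in the shunt comparisons of single atria, against 3.97% and 0.935% of all genes. Myh1, annotated as a fast skeletal heavy chain, was at 11.25, 11.34 and 11.25 in right sham and 11.66, 11.61 and 11.76 in right shunt. The rise was 0.40 ± 0.08 in the right (limma adjusted p = 0.0184) and 0.54 ± 0.08 in the left atrium (0.0063). The right atrial call was lost in 5 of 12 exclusions of an array, without any of the right shunt replicates or without right sham replicate 1 or 3, and the left one in none. Of its 4 other probe sets, 3 rose in both atria, and 1 fell in the right by 1.19 (limma adjusted p = 0.0431). The probe set that stands for Myh1 carries the suffix that Affymetrix gives to sets with probes that may also bind other sequences. Its signal may thus not be Myh1 alone.

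Other fast skeletal heavy chains were dim, with Myh2 between 3.54 and 3.76 and Myh4 between 2.55 and 3.07 on all arrays. The median change of the 14 chains was 0.04 in the right and 0.12 in the left atrium, against 0.02 and -0.01 over all genes. Between the sham atria 4 of the 14 were higher on the left, where 22.2% of all genes were, Myh9 by 1.10, Myh11 by 0.60, Myh14 by 0.42 and Myl9 by 0.27. Myl1 fell by 0.61 and Myl12a fell by 0.40 from right to left. Myh9 and Myh14 are non-muscle heavy chains, and Myh11 is that of smooth muscle.

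None of 16 measured regulators and binding partners of myosin passed limma's test in either atrium after the shunt, with an unadjusted p under 0.05 for 3 in the right and 2 in the left, and their median changes were -0.04 and 0.01. Between the sham atria, 8 were higher on the left, where 22.2% of all genes were, and 3 were lower. The higher ones included Smyd1, a methyltransferase needed for sarcomere assembly (0.88), Ppp1r12b, a targeting subunit of myosin phosphatase (0.81), Dapk3 (0.57) and Mybpc3, cardiac myosin binding protein C (0.37). Ppp1cb, the catalytic subunit of myosin phosphatase, was lower by -0.60.

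Of 15 thin filament genes, 1 rose in each atrium, where 2.83% (right) and 0.373% (left) of all genes did. It was Acta1, the skeletal alpha-actin that fetal heart also uses. Acta1 was at 9.86, 10.44 and 10.05 in right sham and 11.68, 11.68 and 11.76 in right shunt, a rise of 1.59 ± 0.14 (limma adjusted p = 0.000341). In the left atrium it rose by 1.11 ± 0.14 (limma adjusted p = 0.0042), and both calls held without any 1 array. Right shunt replicate 1, low for Myh7, Myl2 and Myl3, was as high as the other shunt arrays for Acta1.

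Of 19 genes of the thick filament, Z-disc and M-band, 2 rose in the right atrium and 2 in the left, against the same 2.83% and 0.373% of all genes. Synpo2l, an actin-binding Z-disc protein, rose in both, by 0.57 (limma adjusted p = 0.0060) and 0.51 (0.0166). Ankrd1, a stress-responsive partner of titin, rose by 0.29 in the right (limma adjusted p = 0.0326), and Myot, the Z-disc protein myotilin, by 0.46 in the left (0.0456). The last of these held in 1 of 12 exclusions of an array and Ankrd1 in 6. Between the sham atria 6 of the 19 were higher on the left and 4 lower, against 22.2% and 15.4% of all genes, among them Neb by -1.40 and Fhl2 by -0.95.

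**Figure D5:**
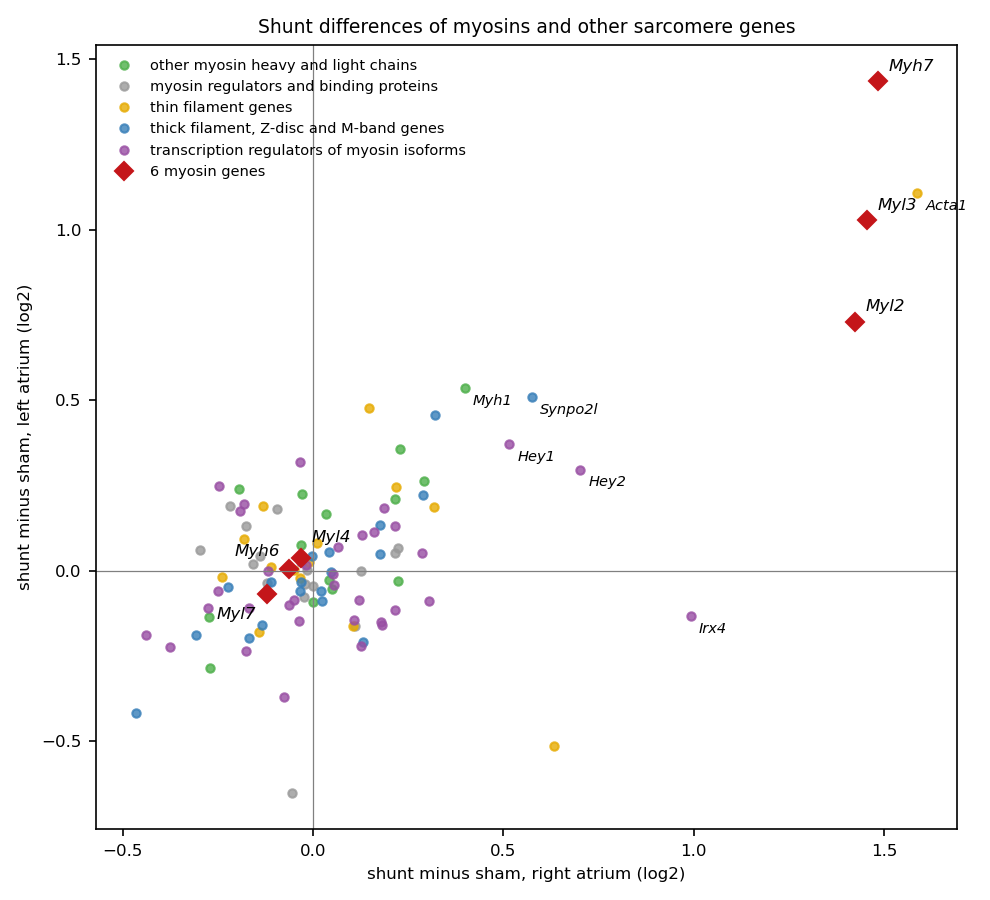
Shunt minus sham log2 difference in the right atrium (horizontal axis) and in the left atrium (vertical axis), 1 point per gene, for the 6 myosin genes and the lists of related genes. Most points lie near 0 in both atria, while Myh7 (1.48 and 1.44), Acta1 (1.59 and 1.11), Myl3 (1.45 and 1.03) and Myl2 (1.42 and 0.73) lie apart from them.

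Of 35 transcription regulators linked to myosin isoform choice, 2 rose in the right atrium, where 2.83% of all genes did, Hey2 and its relative Hey1 (0.52, limma adjusted p = 0.0285, lost in 6 of 12 exclusions of an array), and none passed limma's test in the left, where 5 had an unadjusted p under 0.05. Their median change was 0.05 and -0.06. The thyroid hormone receptors Thra and Thrb, which drive Myh6 over Myh7 in rodents, did not pass in either atrium. Neither did the deiodinases Dio1, Dio2 and Dio3, or Med13, a Mediator subunit targeted by miR-208a in mouse. The deiodinases had mean levels of 3.43, 3.35 and 4.56, below the array medians, where a change may be hard to resolve. Between the sham atria 13 of the 35 were higher on the left and 10 lower, against 22.2% and 15.4% of all genes. Nkx2-5 was higher by 1.03, Hand2 by 0.69 and Gata4 by 0.66. Lower were Sox6, a repressor of slow muscle genes (-1.43), Hopx (-1.32), Hey1 (-1.06) and Irx4 (-0.95). The call of Irx4, whose levels lay below the array medians, held in 4 of 12 exclusions of an array. Those of Sox6, Hopx and Hey1 held in all 12.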

How the data were processed

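Gene expression was measured in rat right and left atrial appendages after a shunt or sham operation, on 12 Affymetrix arrays in 4 groups of 3 taken from the sample titles. Per the submitters' processing notes, the authors deposited log2 values per probe set from RMA, whose version is not given in the sources used here. This method corrects background, forces all arrays to nearly 1 distribution and summarises the probes of a set, so that a change shared by most transcripts is not visible.

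The values were used as deposited, without 57 control probe sets of 31099. The annotation named 1 gene for 20826 of the 31042 others, several for 436 and none for 9780. With limma 3.58.1 in R 4.3.3 (lmFit, contrasts.fit, eBayes), 4 group means were estimated together from the 12 arrays. Each of 6 comparisons was two-sided and adjusted by Benjamini-Hochberg over the 31042 probe sets, with a threshold of 0.05. Differences are given on the log2 scale with their SE from limma, and spreads are SD over 3 arrays. The number of arrays limits the precision.

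The members and the lists of related genes and cell type markers were chosen with earlier results of these data known. Beyond the members, the genes named are the 3 most like each member by Pearson correlation over the arrays (SD at least 0.3), up to 4 called genes per list and comparison, and Nppa, Acta1, Irx4 and Hey2. Genes named outside this rule, such as the thyroid hormone receptors, Med13, Myh2 and Myh4, were chosen after their values were seen. Each array pools 2 tissues, and p-values measure the spread between pools. The fit was tested on simulated data. The alternatives tried were another normalization, centring, a filter on dim probe sets (log2 value of 5 on at least 3 arrays), the trend and robust options of eBayes, weights per array, fits restricted to the compared groups, replicate numbers as a block, the mean of a gene's probe sets, and leaving out each array.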

Additional observations from a re-analysis of the deposited data

How the results depend on the processing

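Over 20 alternatives planned, 1044 values of the myosin probe sets were recomputed, of which 954 kept their sign and their side of the threshold, 35 changed sign without being called either way, 40 lost a call and 13 gained one. The other 2 changed sign and were called under the alternative: the left minus right difference of Myh6 with the mean of its probe sets, 0.37 in sham and 0.38 in shunt, which follows from its probe sets lying on opposite sides of 0. Among the 35, the left minus right difference of Myh7 in sham went from -0.55 to 0.17 with the mean of its probe sets (adjusted p = 0.631), and the difference of shunt effects on its other probe set from -0.31 to 0.15 without left atrium shunt replicate 3. With eBayes trend and robust options 1 of the 6 genes was called in the right atrium in place of 3 (Myh7, with Myl2 at adjusted p = 0.0729 and Myl3 at 0.0806). Myl2 gave 0.44 in the right atrium with the mean of its probe sets (adjusted p = 0.197).

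Same-numbered arrays did not deviate together between sham and shunt (correlations of -0.006, -0.029 and -0.045 in the right and -0.076, -0.007 and -0.065 in the left atrium), and between left and right they did so weakly (0.097, 0.148 and 0.079 in sham, 0.134, 0.143 and 0.095 in shunt). Not every correlation was over 0.1, and the replicate numbers were not taken as pairs. These values do not settle whether left and right arrays share animals, which the labels do not state. The main tests treated all arrays as independent. With the replicate number as a block, Myl3 in the right atrium was at 1.45 with adjusted p = 0.0522, and 3 probe sets in place of 8 were called for the difference of effects. Left-right calls with the block numbered 10995 in sham and 11461 in shunt, with 2 of the 6 genes in each.

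Counts of calls over all probe sets moved as well. The difference of effects had 8, against 4 with array medians subtracted and 15 with trend and robust options or with array weights. The left atrium had 233, against 485 with trend and robust options, 370 with array weights and 13 when only its groups were fitted, where 0 of the 6 genes was called. The right atrium had 923, against 2352 with array weights and 1415 when only its groups were fitted, and the average had 1198 against 1867 with array weights. With the mean of a gene's probe sets, where fewer features are tested, left-right calls went from 11214 to 5804 in sham and from 11690 to 6249 in shunt, and the index differed by -1.68 and -1.92 in place of -2.58 and -3.03.

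Leaving out each array in turn gave 148 to 1631 called probe sets in the right atrium, 77 to 554 in the left, 672 to 2018 averaged, 0 to 21 for the difference of effects, 9016 to 12309 left-right in sham and 8913 to 11578 in shunt. The members called numbered 1 to 3, 0 to 1, 3 to 3, 0 to 0, 2 to 3 and 2 to 3 in the same order. The index shifted by 1.31 to 1.89, 0.90 to 1.27, 1.19 to 1.48, -0.82 to -0.24, -2.72 to -2.45 and -3.40 to -2.81.

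When right atrium shunt was reduced to its replicate 1, a setting chosen after seeing the data, 19 probe sets were called in the right atrium, 86 in the left, 239 averaged, 0 for the difference of effects and 4797 left-right in shunt. Of the 6 genes 0 were called in the right atrium and 1 averaged, and the index shifted by 0.79 in the right atrium, 0.93 averaged, 0.28 for the difference of effects and -2.30 left-right in shunt. The lone array is assumed there to vary like the other groups. The cause of these changes was not tested. Signal near the array medians may limit Myl2 on the left, and the top of the scale may limit Myh6, Myl4 and Myl7.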
